A study of Mus musculus with 14 samples.

Results

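The comparison described here is the change in gene expression when mouse embryonic stem cells (ESC) form embryoid bodies (EB), taken within each cell line and set between mutant and wild-type (WT) lines. A line's change is its log2 intensity in EB minus its log2 intensity in ESC. It uses the 12 of 14 arrays whose line was measured at both stages: the WT lines B21, J1 and R1, and the TKO lines 7-4-1, Dutch and Ta1-12, with 1 array per line and stage. The remaining 2 arrays, TKO EB 2-55-2 and 14-14-4, have no ESC array of the same line and were left out. TKO is left unexplained in the labels. It is read here, from the study's stated subject, as loss of the 3 genes of the Rb family, Rb1, Rbl1 and Rbl2. All groups are total RNA from cultured cells, with no agent named. The alleles, the days of EB culture, the strain of each line and whether a line is a single clone are not stated in the sources at hand. The replicate is the line. SDs measure the spread between the 3 lines of a genotype. Standard errors and p-values rest on 1 spread per gene that both genotypes share, so a wide spread in one genotype also weakens calls in the other. Embryoid bodies are aggregates of many cell types, and in such bulk RNA fewer cells of a type and less RNA per cell cannot be told apart.

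The Rb family proteins pRB, p107 (from Rbl1) and p130 (from Rbl2) are called pocket proteins. They bind E2F transcription factors and hold genes for S phase entry and DNA replication in check until cyclin-dependent kinases (CDKs) phosphorylate them. As cells leave the cycle, p130 or p107 also joins E2F4, DP and the MuvB proteins in the DREAM complex, which represses cell cycle genes through E2F sites and, in many genes of G2 and mitosis (G2/M), through an element called the CHR. Embryonic stem cells cycle fast with short gap phases, and in differentiating embryoid bodies the G1 phase lengthens while pluripotency genes are shut off.

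Promoters of 4 cell cycle genes are printed because the lines differed in how far these genes went down, and because they carry the elements just named. Each stretch is the 250 bases before the start site, 5′ to 3′ on the gene's strand, from RefSeq on GRCm38.p6. Capitals mark the E2F forms TTTCCCGC, TTTGGCGC, TTTCGCGC and TTTGCCGC and the CHR TTTGAA, each searched on both strands.
Mcm6: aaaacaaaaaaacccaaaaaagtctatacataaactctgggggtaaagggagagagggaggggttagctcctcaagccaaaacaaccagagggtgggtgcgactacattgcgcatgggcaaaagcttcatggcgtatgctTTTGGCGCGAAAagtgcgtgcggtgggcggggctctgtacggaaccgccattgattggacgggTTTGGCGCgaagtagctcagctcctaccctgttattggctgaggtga
Cdc6: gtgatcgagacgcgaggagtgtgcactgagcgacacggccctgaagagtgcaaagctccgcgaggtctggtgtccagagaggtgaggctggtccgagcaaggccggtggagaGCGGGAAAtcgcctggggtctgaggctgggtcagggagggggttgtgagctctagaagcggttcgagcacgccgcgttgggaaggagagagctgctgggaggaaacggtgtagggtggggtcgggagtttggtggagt
Orc1: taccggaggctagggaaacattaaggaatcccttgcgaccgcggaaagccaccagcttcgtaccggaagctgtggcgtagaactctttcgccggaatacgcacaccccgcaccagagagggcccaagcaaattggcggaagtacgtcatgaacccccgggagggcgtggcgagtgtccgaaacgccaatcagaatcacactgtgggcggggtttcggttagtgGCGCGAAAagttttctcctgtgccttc
Cdk1: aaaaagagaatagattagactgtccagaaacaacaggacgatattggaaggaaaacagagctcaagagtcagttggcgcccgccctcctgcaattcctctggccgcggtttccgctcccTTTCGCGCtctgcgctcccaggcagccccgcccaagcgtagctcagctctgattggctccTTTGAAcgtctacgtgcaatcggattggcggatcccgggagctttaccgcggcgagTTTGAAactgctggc
Mcm6, a subunit of the MCM replicative helicase, lies on the minus strand with this stretch at chr1:128359706-128359955, and its E2F forms start at -110, -106 and -47 from the start site, the first pair overlapping. Cdc6, which loads the helicase, has its stretch at chr11:98907901-98908150 on the plus strand and an E2F form at -138. Orc1, the largest subunit of the origin recognition complex, has its stretch at chr4:108579204-108579453 on the plus strand and an E2F form at -27. Cdk1, the kinase that drives mitosis, has its stretch at chr10:69352913-69353162 on the minus strand, with an E2F form at -131 and CHR matches at -71 and -15. Over the whole 300 bases that RefSeq promoters cover here, to 50 after the start site, an E2F form stood in 19 of 45 listed E2F targets with a promoter (42.2%), in 3 of 43 G2/M genes (6.98%) and in 4.4% of 11407 tested genes. The CHR letters stood in 31 of 43 G2/M genes (72.1%), in 8 of 45 E2F targets (17.8%) and in 14.5% of all. Genes whose TKO and WT changes did not overlap, described further on, held an E2F form in 4.96% (TKO above) and 4.81% (TKO below) of promoters. A match is a description of the sequence only.

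Array medians spread over 83.2 to 107.9 intensity units, and a floor of 32 was set before log2. The pocket protein genes were read first, since they bear on the labels. The brightest Rbl1 probe set read 694, 462 and 356 in WT ESC and 586, 1090 and 493 in WT EB (lines B21, J1 and R1 in order). It read 24.5 and 38.3 in ESC and EB of TKO 7-4-1, 250 and 377 in TKO Dutch, and 493 and 1096 in TKO Ta1-12. Line 7-4-1 was therefore far below every WT array, whereas the arrays labelled TKO Ta1-12 were at the WT level at both stages. Low signal was not particular to 7-4-1. The left-out TKO EB arrays 2-55-2 and 14-14-4 read 31.7 and 15.9, both below 7-4-1 EB. On a second Rbl1 probe set, 7-4-1 read 36.6 (ESC) and 28.1 (EB), 2-55-2 14.7 and 14-14-4 12.7. There Dutch read 88.2 (ESC) and 135.5 (EB), Ta1-12 328.2 and 194.2, and each WT array 114.0 or more. The remaining Rbl1 probe sets were at 51.0 or less on every array. Rb1 read 116 to 607 in TKO ESC and 138 to 791 in WT ESC, and overlapped in EB too. Rbl2 read 659 to 843 in TKO ESC and 411 to 661 in WT ESC, and overlapped in EB as well. The position of these probes against the deleted parts of the genes is not stated either, so these values check no genotype. Group names below follow the labels, and values are given line by line because the line labelled Ta1-12 often took the WT range.

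No gene passed the test for a different change in TKO and WT lines. With limma and Benjamini-Hochberg adjustment over 14265 genes, 0 genes were called (0.0%), and the lowest adjusted p was 0.999. At an unadjusted p under 0.05 there were 368 genes (2.58%), 142 with the TKO change higher and 226 with it lower. The count stayed at 0 without any single line. Leaving out TKO Ta1-12 gave the lowest adjusted p, 0.0533, and 1379 genes at an unadjusted p under 0.05. All differences of TKO minus WT given below therefore miss the threshold, and their values are a description of these 6 lines.

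Each genotype on its own changed widely. In the WT lines 5429 genes were called, 3325 higher in EB (23.3%) and 2104 lower (14.7%). In the TKO lines 3236 were called, 2112 higher (14.8%) and 1124 lower (7.88%). The WT count dropped to 499 without B21, 1573 without J1 and 2944 without R1. The TKO count dropped to 69 without Ta1-12, 220 without 7-4-1 and 1860 without WT J1, whose spread enters the same fit. Scaling moved the split: 61.2% of WT calls were higher in EB as deposited, 48.2% after quantile normalization (2689 higher, 2887 lower) and 50.4% with arrays centred on their medians (2666 and 2623). For the TKO calls the share was 65.3%, 53.3% (1765 and 1548) and 57.7% (1745 and 1277). These scalings moved the median change of all genes from 0.13 to -0.07 in WT and from 0.11 to -0.05 in TKO.

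The 3 TKO lines did not travel the same distance. Against the mean WT change, the slope across genes was 0.86 for 7-4-1, 0.36 for Dutch and 1.07 for Ta1-12, with correlations across genes of 0.79, 0.63 and 0.92. Each WT line set against the other 2 gave slopes of 1.14 (B21), 0.87 (J1) and 0.72 (R1). Dutch had the fewest genes changed at least 2-fold, with 1562 higher and 531 lower, whereas the other 5 lines had 2902 to 4041 higher and 1709 to 2231 lower. Among the 460 genes whose mean WT fall was at least 4-fold, the median change was -2.65 in 7-4-1, -0.65 in Dutch and -3.02 in Ta1-12. For the 1453 genes with a WT rise of that size it was 2.77, 1.23 and 3.3. The changes of WT lines correlated at 0.79 to 0.86 with each other, and those of TKO lines at 0.64 to 0.7. Ta1-12 correlated at 0.83 to 0.91 with the WT lines, which is within or above the WT pairs. These correlations are across genes of shared arrays and are given as a description.

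**Figure D1:**
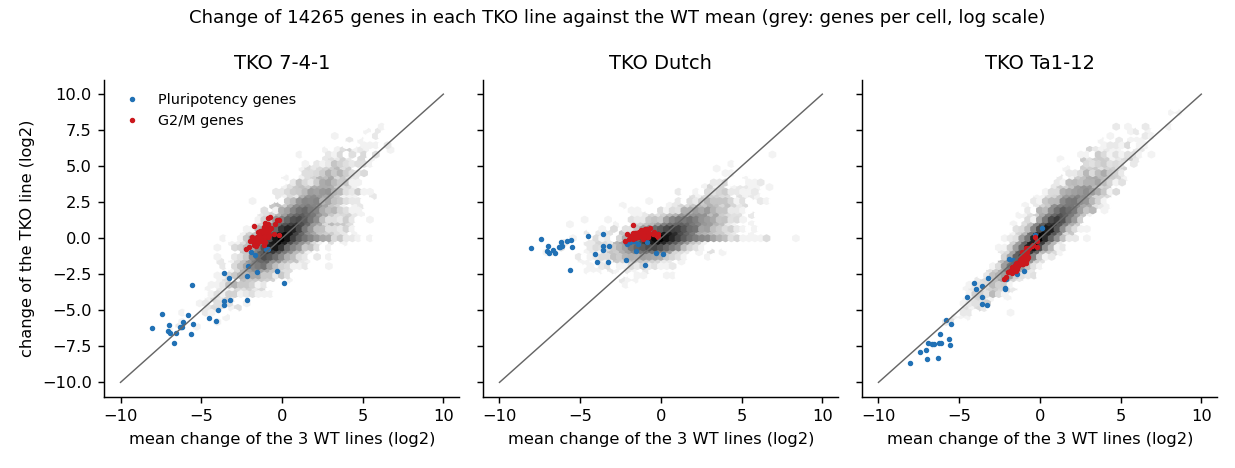
Change of 14265 genes in each TKO line (vertical, log2) against the mean change of the 3 WT lines (horizontal, log2), with pluripotency genes in blue, G2/M genes in red and the diagonal as a line. Pluripotency genes lie near 0 in Dutch, and G2/M genes lie above the diagonal in 7-4-1 and Dutch but mostly below it in Ta1-12, where their median is -1.72.

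The listed E2F targets of the G1/S transition and DNA replication went down in WT lines but hardly in 7-4-1 and Dutch. Of 60 listed genes 56 were tested. The other 4 were not analysed here. Their median change was -1.75 in B21, -0.68 in J1 and -0.88 in R1, and 0.02 in 7-4-1, 0.03 in Dutch and -1.18 in Ta1-12. The 7-4-1 value turned to -0.06 after quantile normalization and -0.25 with centred arrays, still above every WT line. In the WT lines 32 of the 56 fell (14.7% of all genes) and 0 rose (0 at an unadjusted p under 0.05 too). In the TKO lines 2 fell, Ccne1 and Orc1, beside 7.88% of all genes. Those WT calls numbered 0 without B21, 16 without J1 and 20 without R1. The TKO falls numbered 0 without 7-4-1 or Ta1-12, 1 without J1 and 5 without Dutch. In 7-4-1, 49 of the 56 lay above the range of the WT lines, against 28.0% of all genes, and in Dutch 46, against 27.5%. In Ta1-12, 4 lay above (21.1% of all), 50 within and 2 below (19.6% of all).

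Mcm6, whose promoter is shown above, was at 13532, 12158 and 10710 in WT ESC and 4832, 9185 and 6525 in WT EB of B21, J1 and R1. In the TKO lines it went from 13285 to 13092 (7-4-1), from 10767 to 11117 (Dutch) and from 10161 to 9085 (Ta1-12). The ESC levels overlapped. In EB, B21 and R1 were below every TKO line, whereas J1 (9185) was just above Ta1-12 (9085), so the EB levels overlapped too. Each TKO change was above each WT change. The mean change was -0.87 ± 0.56 (SD, n = 3) in WT, a called fall with a limma adjusted p of 0.0159, and -0.05 ± 0.11 in TKO. The difference was 0.82 with a standard error of 0.27. Mcm2, Mcm3 and Mcm4, further subunits of the helicase, were the other listed targets whose TKO changes all lay above WT, so 4 of 56 did so against 2.92% of all genes. Mcm2 changed by -1.39, -0.70 and -0.74 in WT and by -0.21, -0.07 and -0.57 in TKO (7-4-1, Dutch, Ta1-12). Mcm5, of the same helicase, overlapped: -1.70, -0.53 and -0.86 against -0.07, -0.13 and -1.20.

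Pold1, the catalytic subunit of DNA polymerase delta, went from 2450, 2690 and 2254 to 385, 905 and 722 in WT. It went from 2435 to 2944 in 7-4-1, from 2458 to 3547 in Dutch and from 2038 to 625 in Ta1-12. Its EB level was thus several times above every WT line in 7-4-1 and Dutch, and within the WT range in Ta1-12. Cdc6 showed the same order, with changes of -2.88, -0.51 and -0.31 in WT and 0.09, 0.29 and -1.30 in TKO. Other targets fell in every line. Ccne1, cyclin E1, which partners CDK2 at S phase entry, changed by -1.5, -0.88 and -2.23 in WT and -2.15, -1.69 and -2.09 in TKO, a called fall in both (adjusted p 0.00957 and 0.0102 in limma). Orc1 fell by 3.04 in WT and by 2.21 in TKO (adjusted p 0.009 and 0.0283). Mybl2, the B-Myb factor that joins MuvB in cycling cells, had the lowest change of the list in every line except Dutch, from -5.79 in B21 to -2.31 in R1. In Dutch it changed by -0.78, from 5978 to 3493. Ccne2, cyclin E2, had the highest change of the list in all 6 lines, from -0.13 in B21 to 2.41 in 7-4-1.

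The G2/M genes, which act in chromosome condensation, the spindle and cytokinesis, separated lines 7-4-1 and Dutch from WT without exception among the tested members. Of 52 listed genes 51 were tested (not Ccnb1). Their median change was -1.81, -1.01 and -0.94 in B21, J1 and R1, and 0.12, 0.24 and -1.72 in 7-4-1, Dutch and Ta1-12. With centred arrays the 7-4-1 value turned to -0.15. In WT 25 of 51 fell, beside 14.7% of all genes. In TKO 0 fell by limma, beside 7.88% of all genes, and 1 had an unadjusted p under 0.05 with a lower level. The WT count was 0 without B21, 0 without J1, 2 without R1 and 43 without TKO Ta1-12. All 51 changes lay above the WT range in 7-4-1 and all 51 in Dutch, beside 28.0% and 27.5% of all genes. In Ta1-12 1 lay above (21.1% of all), 40 within and 10 below (19.6% of all), the number below being near the share over all genes.

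Kif23, a kinesin of the cytokinetic midzone, went from 2620, 3217 and 3198 in WT ESC to 1036, 2118 and 2090 in WT EB. In 7-4-1 it went from 2851 to 3079, in Dutch from 2923 to 3138 and in Ta1-12 from 2766 to 1723. The WT fall of 0.85 was called (adjusted p 0.0296, limma), and the Ta1-12 change of -0.68 lay inside the WT changes. Plk1, the Polo kinase of mitotic entry, changed by -2.24, -1.20 and -1.20 in WT and by -0.41, 0.08 and -2.02 in TKO. Cdk1 changed by -0.87, -0.32 and -0.34 in WT and by 0.29, 0.27 and -0.52 in TKO. Mki67, the proliferation marker Ki-67, was at 8011 in 7-4-1 EB and 4563 in Dutch EB, against 2102 to 4322 in WT EB. It read 2333 in Ta1-12 EB, inside that range. Cdc25b, a phosphatase that activates CDK1, was the member whose 3 TKO changes (1.3, 0.22 and 0.12) all exceeded WT (-0.02, -0.24 and -0.60). That is 1 of 51, beside 2.92% of all genes.

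**Figure D2:**
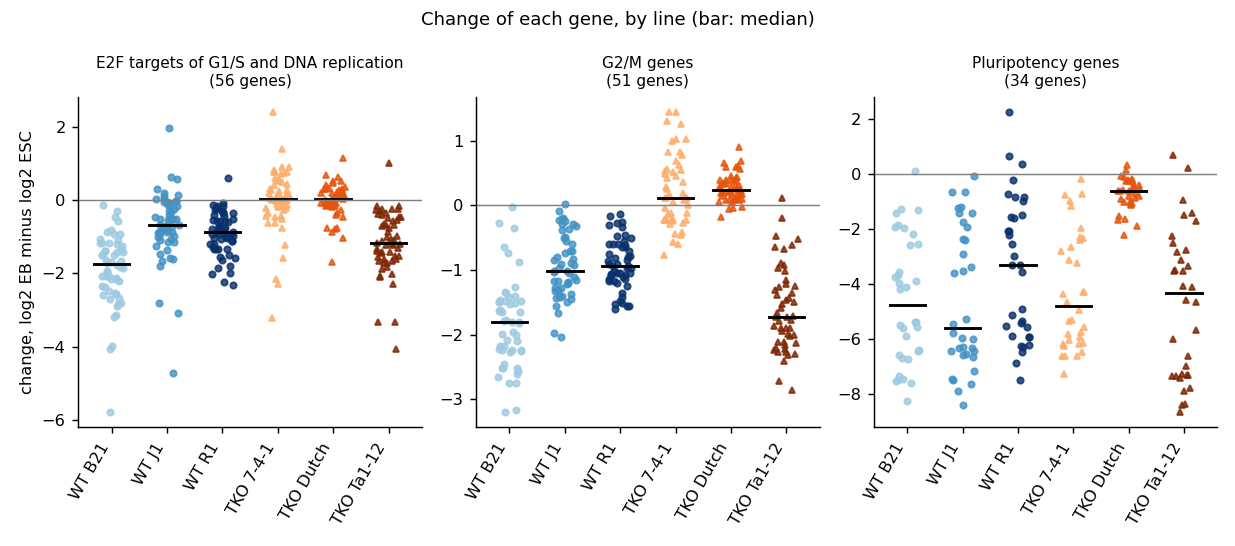
Change of each tested gene (points, log2 EB minus log2 ESC) in each line for 56 E2F targets, 51 G2/M genes and 34 pluripotency genes, with the median as a bar. The medians of both cell cycle lists are at 0.02 to 0.24 in 7-4-1 and Dutch and below -0.6 in the other 4 lines; the pluripotency median stays near 0 in Dutch alone, at -0.61.

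Summed over the 56 E2F targets the intensity was 243960 to 263719 in WT ESC, and 284162, 267715 and 255034 in ESC of TKO 7-4-1, Dutch and Ta1-12. Lines 7-4-1 and Dutch were thus above every WT line already in ESC, by far less than in EB, and Ta1-12 was within the WT range. The G2/M sums in ESC were 215380 to 228752 in TKO, within the WT range of 215201 to 237296. In EB the E2F target sum was 84591, 181132 and 141050 in WT and 283685, 266181 and 139210 in TKO 7-4-1, Dutch and Ta1-12. The G2/M sum in EB was 68002, 133135 and 129937 in WT and 254003, 263720 and 83032 in those TKO lines. The summed pluripotency markers moved with these sums in 1 line only: 154972 in Dutch EB, 29079 in 7-4-1 EB, 35352 in Ta1-12 EB and 26676 to 43607 in WT EB. The part of remaining stem cells in the Dutch values was not tested. In 7-4-1 EB the pluripotency sum was within the WT range, but its members went both ways. By change, 8 of 34 lay above the WT range in 7-4-1 (28.0% of all genes), 7 below (29.3%) and 19 within. Pou5f1, Nanog and Sox2, given below, read above every WT EB array there. The primitive ectoderm sum was 3004, 19211 and 723 in TKO EB of 7-4-1, Dutch and Ta1-12, against 1206 to 1891 in WT EB. The part of remaining stem cells in 7-4-1 was not tested either.

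The CDK inhibitors, which slow the kinases that inactivate pocket proteins, rose in both genotypes. All 7 were tested, and 6 were called higher in WT (23.3% of all genes) and 6 in TKO (14.8% of all). Median changes were 3.31, 1.88 and 1.78 in WT and 2.73, 2.03 and 2.84 in TKO. The WT count was 0 without B21 and 3 without J1. The TKO count was 0 without Ta1-12, 2 without 7-4-1 and 4 without Dutch. Cdkn1a, encoding p21, went from 2017, 3024 and 2596 to 10720, 10930 and 8938 in WT. It went from 2728 to 6625 (7-4-1), 1941 to 7942 (Dutch) and 1460 to 10473 (Ta1-12). Its mean change was 2.02 ± 0.34 (SD, n = 3) in WT and 2.05 ± 0.78 in TKO, and the lines overlapped. Cdkn1c, the imprinted inhibitor p57, changed by 4.43, 2.51 and 2.28 in WT and 5.29, 3.61 and 3.18 in TKO. Cdkn2c, an INK4 inhibitor of CDK4 and CDK6, reached 2118 in 7-4-1 EB from 38.1, a change of 5.80 against 2.36 to 4.27 in WT. Cdkn2a, the Ink4a/Arf gene, was the member called in WT (adjusted p 0.0135) and not in TKO (0.137), and a difference between them was not called.

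The list of D cyclins and their kinases, which act on pocket proteins in G1, also holds Cdk2, the partner of cyclin E1. The TKO change was lower than the WT change in 6 of 6 tested members, beside 7225 of all 14265 genes. The median difference was -0.73. In Ta1-12 1 member lay above the WT range (21.1% of all genes), 2 below (19.6%) and 3 within. In WT 3 rose (Ccnd2, Ccnd3 and Cdk4), beside 23.3% of all genes. In TKO 1 rose, Ccnd2, a count near the share over all genes (14.8%). Without B21 the WT count was 1, and without Ta1-12 or 7-4-1 the TKO count was 0. Ccnd3, cyclin D3, went from 3657, 3450 and 3399 to 7361, 6424 and 6731 in WT. It went from 3888 to 3134 in 7-4-1, from 3785 to 3906 in Dutch and from 4196 to 5688 in Ta1-12. Every WT EB array was above every TKO EB array, and the WT change of 0.96 ± 0.06 (SD, n = 3) stood apart from the TKO change of 0.06 ± 0.38. The difference was -0.91 with a standard error of 0.22. Ccnd2, cyclin D2, reached 12983, 10229 and 10518 in WT EB and 12195 in Ta1-12 EB, but 1180 in 7-4-1 EB and 1385 in Dutch EB. Cdk6 changed by 3.62, 1.48 and 0.59 in WT and by 0.07, -1.42 and 1.09 in TKO.

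Among pocket protein and MuvB genes (9 tested), Rbl2 was the member whose TKO changes all lay below WT, beside 4.28% of all genes. It went from 661, 562 and 411 to 1727, 1684 and 723 in WT, and from 800 to 733 (7-4-1), 659 to 456 (Dutch) and 843 to 1099 (Ta1-12) in TKO. The WT rise was called (1.26 ± 0.40, SD, n = 3, adjusted p 0.0136 in limma), a call lost without B21 or J1. Rbl2 is itself among the genes read as lost in TKO, and how a mutant allele enters this probe set is not known. The difference was -1.35 with a standard error of 0.37. Lin9, a MuvB subunit, was the member with all TKO changes above WT (2.92% of all genes): 0.50, 0.11 and -0.47 against -1.17, -0.50 and -0.55. Of 10 E2F and DP genes, E2f4, the repressor E2F of DREAM, fell in both genotypes (-1.03 and -1.43), a call lost in WT without any WT line and in TKO without 7-4-1 or Ta1-12. E2f7, an atypical repressor that is itself an E2F target, changed by 1.35 in 7-4-1 and by -1.31, -0.02 and -1.44 in WT.

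**Figure D3:**
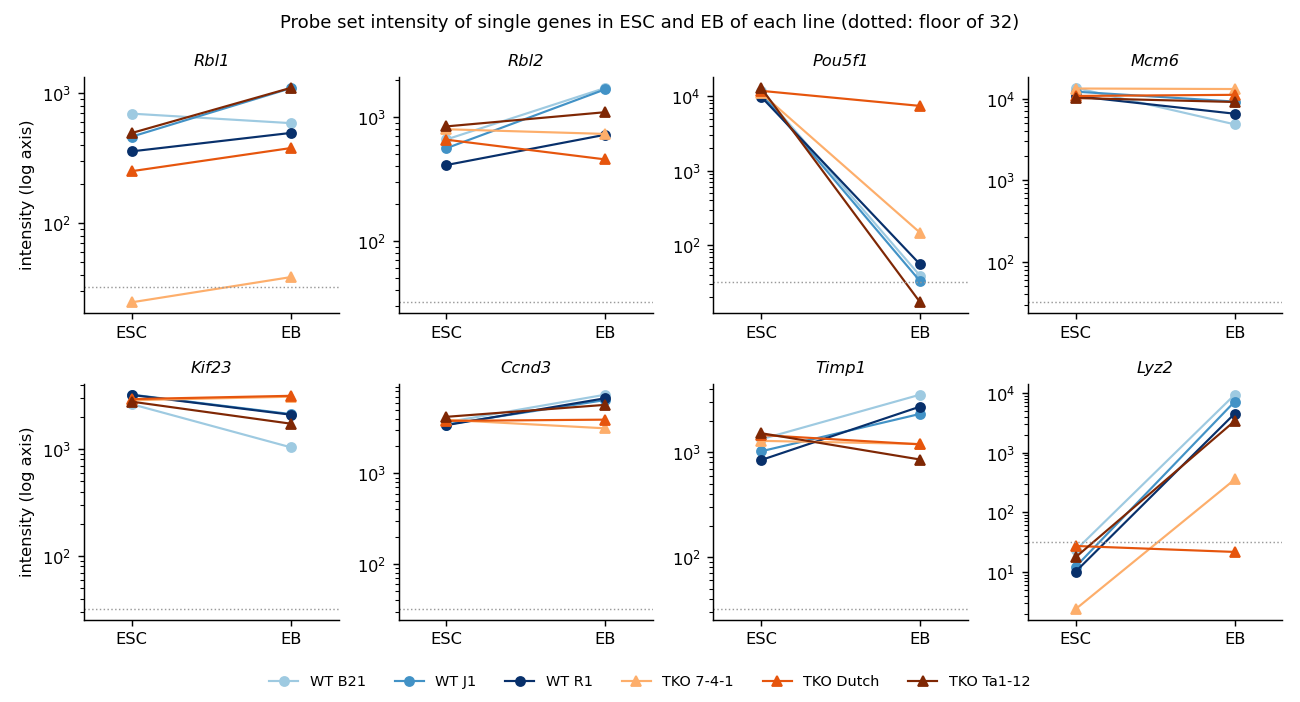
Intensity of 8 genes in ESC and EB (log axis), with a line for each WT (circles) and TKO (triangles) cell line and the floor of 32 dotted. Dutch keeps Pou5f1 at 7410 in EB, Ccnd3 is above all TKO EB arrays in the 3 WT EB arrays, and Timp1 goes up in the WT lines and down in the TKO lines.

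Genes of pluripotency fell in both genotypes, with Dutch as the exception. Of 35 listed genes 34 were tested, and 29 fell in WT (14.7% of all genes) and 27 in TKO (7.88% of all). The TKO count was 0 without Ta1-12, 1 without 7-4-1 and 15 without R1, and 10 and 7 without B21 and J1. The WT count was 1 without B21 and 11 without J1. The median change was -4.77, -5.59 and -3.3 in WT, -4.8 in 7-4-1, -0.61 in Dutch and -4.34 in Ta1-12. Pou5f1, the Oct4 factor that holds the stem cell state, went from 11681, 10972 and 9880 to 38.8, 32.8 and 55.2 in WT. It went from 11053 to 147 in 7-4-1, from 12950 to 17.1 in Ta1-12 and from 11814 to 7410 in Dutch. Nanog was at 8417 in Dutch EB, 203 in 7-4-1 EB and 20.3 to 56.8 in the other 4. The EB arrays of Dutch were thus near their ESC levels for both genes, and 7-4-1 lay above every WT line for both.

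Sox2, the partner of Oct4, was the pluripotency factor with the lowest p for the difference. It went from 12550, 12116 and 10070 to 3479, 3600 and 2378 in WT, and from 12836 to 6558 (7-4-1), 12695 to 10809 (Dutch) and 12078 to 4485 (Ta1-12). All 3 TKO EB arrays were above all WT EB arrays. The WT change was -1.89 ± 0.17 and the TKO change -0.88 ± 0.60 (SD, n = 3 each), with both falls called (adjusted p 0.00547 and 0.0311, limma). Nr5a2, a nuclear receptor that can stand upstream of Oct4, was the other of 34 with all TKO changes above WT: -2.40, -0.57 and -3.33 against -3.73, -3.51 and -3.55. That made 2 of 34, beside 2.92% of all genes. Klf5, a Krüppel-like factor also active in epithelia, went the other way in 7-4-1, from 5103 to 586, whereas its WT changes were -0.07 to 0.36.

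Primitive ectoderm genes had median changes of -3.31, -3.91 and -3.78 in WT and -3.1, -0.85 and -4.2 in TKO. Of 11 tested, 9 fell in WT (14.7% of all genes) and 6 in TKO (7.88% of all). Leaving out B21 or J1 left 4 in WT, and leaving out 7-4-1 or Ta1-12 left 0 in TKO. Fgf5, a growth factor of the epiblast, read 54.5, 286 and 493 in WT ESC, and 6.85, 30.5 and 20.7 in TKO ESC, all below the floor. Its TKO changes of 0.00, 1.34 and 0.00 rest on that floor. Germline genes had medians of -4.19, -3.2 and -2.43 in WT and -3.07, 0.45 and -3.78 in TKO. In Dutch, Dazl, an RNA-binding protein of germ cells, went from 556 to 4564, while its other 5 lines changed by -2.45 to -5.94. Of the 17 tested, 14 lay above the WT range in Dutch, beside 27.5% of all genes.

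Genes of mesenchyme rose by their median in every line, least in Dutch. Of 22 tested fibroblast and mesenchyme genes 20 rose in WT (23.3% of all genes) and 19 in TKO (14.8% of all). Medians were 6.55, 6.01 and 5.13 in WT and 6.15, 2.74 and 5.97 in TKO. Without B21 13 rose in WT, and in TKO 8 rose without Ta1-12 and 10 without 7-4-1. Col3a1, a fibrillar collagen, was at 20.7 to 92.3 in all ESC and at 22643, 22720 and 19017 in WT EB. It was at 24932, 8622 and 19848 in TKO EB of 7-4-1, Dutch and Ta1-12. Dcn, the proteoglycan decorin, was at 11962 to 18728 in WT EB, 16494 and 15122 in 7-4-1 and Ta1-12 EB, and 1210 in Dutch EB. Endoderm genes had medians of 4.23, 2.28 and 5.21 in WT and 1.78, 2.87 and 5.67 in TKO. Of 23 tested, 14 rose in WT and 13 in TKO, beside the same shares of all genes. Without B21 5 rose in WT, and without Ta1-12 3 and without 7-4-1 5 in TKO. Afp, secreted by visceral endoderm, was at 31.9 or less in every ESC array. It reached 15473, 6793 and 15476 in WT EB and 3884, 9289 and 17787 in TKO EB. Its order across lines was not the order of the cell cycle genes, with 7-4-1 lowest and Dutch inside the WT range.

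Cardiac muscle genes changed less in the 3 TKO lines compared, without a called difference. Of 27 tested, 18 rose in WT (23.3% of all genes) and 8 in TKO (14.8% of all). The mean change was lower in TKO for 24 of 27, beside 7225 of all 14265 genes. Without B21 8 rose in WT. The TKO count was 1 without Ta1-12 and 3 without 7-4-1. Medians were 3.22, 3.78 and 2.44 in WT and 1.5, 0.84 and 1.98 in TKO, so that all 3 TKO lines were below all 3 WT lines, as they were under both other scalings. Tnnt2, cardiac troponin T, reached 5162, 8172 and 1709 in WT EB and 1395, 194 and 1976 in TKO EB from at most 27.8 in ESC. Its changes overlapped, since Ta1-12 (5.95) exceeded R1 (5.74). Ryr2, the calcium release channel, and Mybpc3, a thick filament protein, were the 2 of 27 whose TKO changes all lay below WT, beside 4.28% of all genes. Ryr2 changed by 1.66, 2.33 and 2.85 in WT and by 0.52, 0.81 and 1.44 in TKO.

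Macrophage genes gave the widest gap between lines. Of 13 tested 12 rose in WT (23.3% of all genes) and 1 in TKO (14.8% of all), Csf1r, the receptor that macrophages need to grow. In WT 1 rose without B21, and the TKO count was 10 without Dutch and 0 without Ta1-12. Medians were 6.11, 5.1 and 5.37 in WT, 2.16 in 7-4-1, 0.00 in Dutch and 5.48 in Ta1-12. All 13 changes were below the WT range in 7-4-1 (29.3% of all genes) and 12 in Dutch (34.3% of all). Lyz1, Lyz2, Ptprc, Fcer1g, C1qa, C1qb, Mpeg1 and Ctss were under the floor in every ESC array. They passed the expression filter through EB arrays, and were highest in WT and Ta1-12 EB. The share over all genes is therefore not a like comparison for this list. In Ta1-12 2 were below (19.6% of all), Lyz1 and Lyz2. These were the 2 of 13 with all TKO lines below WT, beside 4.28% of all genes. Lyz2, lysozyme M, was under the floor in all 6 ESC arrays and at 9341, 7161 and 4505 in WT EB. It was at 354 in 7-4-1 EB, 21.6 in Dutch EB and 3384 in Ta1-12 EB. C1qa, a complement subunit, was at 1977 to 5227 in WT EB, 3583 in Ta1-12 EB, 134 in 7-4-1 EB and 3.79 in Dutch EB. Summed over 14 markers on the array the intensity was 30146 to 55574 in WT EB and 3398, 1601 and 28405 in TKO EB, and 641 to 956 in all ESC. Lyz1 and Lyz2 are near-identical genes, and their probe sets may share signal.

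Keratinocyte genes followed the same lines. Of 11 tested 7 rose in WT (23.3% of all genes) and 1, Dsp, in TKO (14.8% of all). The WT count was 0 without B21, 1 without J1 and 4 without R1, and the TKO count was 0 without J1, 7-4-1 or Ta1-12. Krt15, a basal epidermal keratin, was at 16.2 or less in every ESC array and at 11899, 9241 and 7575 in WT EB. It was at 13629 in Ta1-12 EB, 211 in 7-4-1 EB and 19 in Dutch EB. The change was below the WT range for 10 of 11 genes in 7-4-1 (29.3% of all genes) and 8 in Dutch (34.3%), and above it for 10 in Ta1-12 (21.1%). Krt15 and Trp63 were under the floor in every ESC array and passed the filter through EB arrays, which limits the comparison with all genes. The summed intensity was 26874 to 32381 in WT EB and 1902, 5802 and 43134 in TKO EB. The summed E2F targets were highest in 7-4-1 and Dutch EB, the arrays with the lowest macrophage and keratinocyte sums, and the part of macrophages and keratinocytes in those cell cycle values was not tested.

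**Figure D4:**
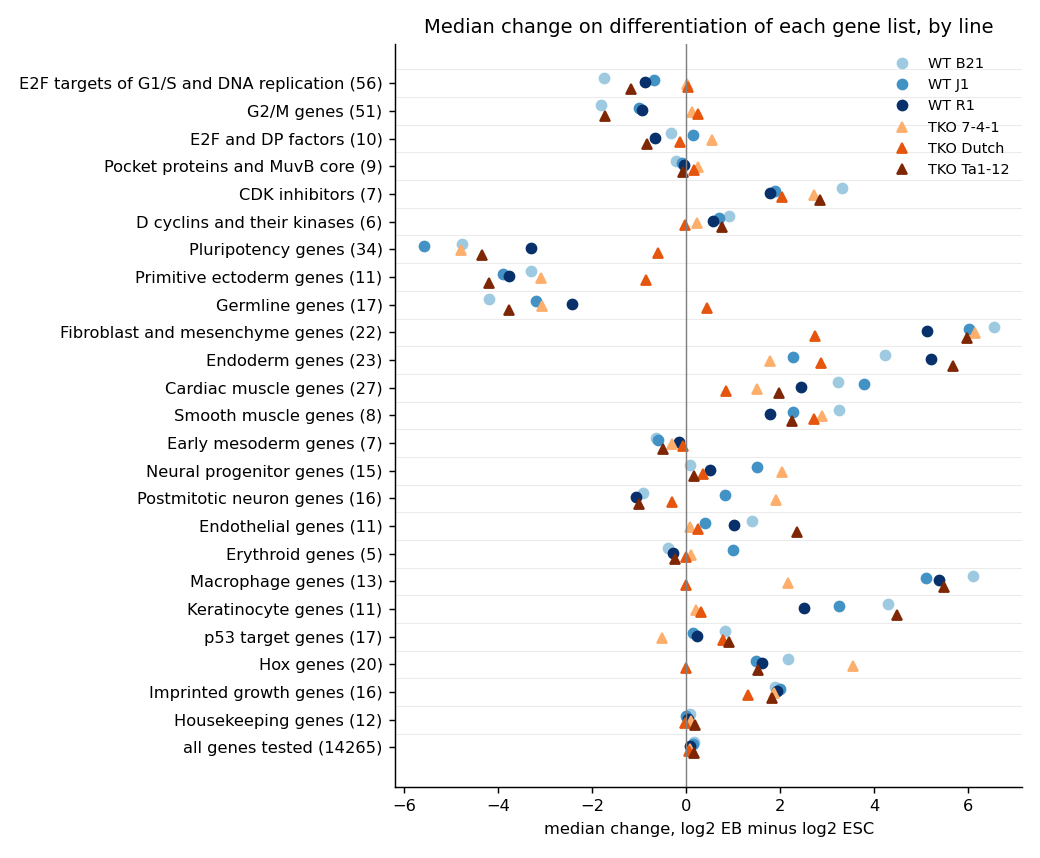
Median change (log2 EB minus log2 ESC) of each gene list in each line, with WT lines as circles, TKO lines as triangles and the number of genes tested in brackets. Ta1-12 lies near the WT lines in the cell cycle, macrophage and keratinocyte lists, where 7-4-1 and Dutch lie apart from them, and all lines are within 0.2 of 0 for housekeeping genes.

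Neuronal and Hox genes set 7-4-1 apart from the other 5 lines. Postmitotic neuron genes had medians of -0.93, 0.82 and -1.07 in WT and 1.91, -0.31 and -1.01 in TKO, and 15 of 16 lay above the WT range in 7-4-1, beside 28.0% of all genes. Map2, a protein of neuronal microtubules, reached 3029 in 7-4-1 EB from 117, against 140 to 796 in the other EB arrays. Stmn2, also neuronal, was high in all ESC arrays (7593 to 9230) and stayed at 3120 in 7-4-1 EB and 2764 in Dutch EB, against 119, 795 and 202 in WT EB. Hox genes, which pattern the body axis, had medians of 2.16, 1.48 and 1.61 in WT, 3.56 in 7-4-1, 0.00 in Dutch and 1.52 in Ta1-12. Of 20 tested, 18 lay above the WT range in 7-4-1 (28.0% of all genes) and 15 below it in Dutch (34.3% of all). Their median ESC level was at the floor in every line, so many passed the filter through EB arrays, which limits the comparison with all genes. Hoxb6 was at 1791 in 7-4-1 EB and at 9.45 to 82.8 in the other EB arrays. Neither list gave a called difference, and their median differences were 0.38 and 0.04.

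The remaining lists are given in brief. Beside them, 23.3% of all genes rose and 14.7% fell in WT, and 14.8% rose and 7.88% fell in TKO. The WT counts of early mesoderm, erythroid and p53 target genes below are not far from these shares and are no result about those lists. Neural progenitor genes had 6 of 15 risen and 1 fallen in WT, and 4 and 1 in TKO. The rises numbered 1 without B21 and 3 without J1 in WT, and 2 without 7-4-1 and 1 without Ta1-12 in TKO, and the WT fall was lost without B21 or J1. Gbx2, a homeobox gene, was among those below WT in every TKO line. It was 822, 304 and 1064 in TKO ESC against 105 to 155 in WT ESC, and under the floor in all EB except 7-4-1 (66.9). Endothelial genes had 5 of 11 risen in WT (0 without B21 or R1, 1 without J1) and 2 in TKO (0 without 7-4-1 or Ta1-12), with Cdh5, VE-cadherin, at 768, 774 and 2459 in WT EB and 86, 88.4 and 3120 in TKO EB. Smooth muscle genes had 6 of 8 risen in WT (1 without B21, 3 without J1) and 4 in TKO (2 without 7-4-1 or Ta1-12). Early mesoderm genes had 1 of 7 risen in each, lost in WT without any WT line and in TKO without any line but Dutch. Erythroid genes had 1 of 5 risen in WT (0 when any line but B21 was left out) and 0 in TKO by limma (0 at an unadjusted p under 0.05). Target genes of p53 had 5 of 17 risen in each genotype and 2 fallen in WT. The rises numbered 0 without B21 and 2 without J1 in WT, and 0 without Ta1-12 and 2 without 7-4-1 in TKO, and the 2 falls were lost without any WT line. Their median was -0.51 in 7-4-1 and 0.14 to 0.92 elsewhere, except that J1 turned to -0.11 with centred arrays. Imprinted growth genes had 9 of 16 risen and 1 fallen in each genotype. Without Ta1-12 4 rose in TKO, and the falls were lost without B21 in WT and without 7-4-1 or Ta1-12 in TKO. Igf2 reached 14520 or more in every EB array. Meg3, a maternally expressed noncoding RNA, was low in 7-4-1 at both stages (66.4 and 46.8) and went from 5079 to 1241 in Dutch. Its other arrays were between 4444 and 13547.

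Genes whose 3 TKO changes did not overlap the 3 WT changes numbered 416 with TKO above (2.92%) and 611 with TKO below (4.28%). The 10 of lowest p in each direction are described next, and none passed the adjusted threshold. Timp1, an inhibitor of metalloproteinases, had the lowest p of all, 5e-04 unadjusted in limma. It went from 1331, 1022 and 844 to 3548, 2326 and 2730 in WT. In TKO it went from 1287 to 1202, 1463 to 1191 and 1523 to 854. The ESC levels overlapped, while every WT EB array was above every TKO EB array. The WT rise of 1.43 ± 0.25 (SD, n = 3) was called and the TKO change was -0.41 ± 0.38, a difference of -1.84 with a standard error of 0.30.

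Of the other genes below WT in every TKO line, several rose in both genotypes, and less in TKO. Akap2, an anchor of protein kinase A, changed by 2.42, 2.09 and 2.57 in WT and 0.85, 1.00 and 1.16 in TKO. Fermt3, kindlin-3 of blood cells, changed by 2.66, 2.17 and 2.48 and by 0.74, 0.88 and 1.05. Its EB levels were 803, 343 and 375 in WT and 96, 270 and 294 in TKO. Actg2, smooth muscle gamma-actin, rose in both, to 1745, 4240 and 6399 in WT EB and to 933, 690 and 2007 in TKO EB, from 34.7 to 66.1 in ESC. Ier2, an immediate early gene, changed by 0.89, 0.96 and 1.13 in WT and by -0.47, -0.17 and 0.35 in TKO. Rtn2, a reticulon, changed by 2.37, 1.90 and 1.73 and by 0.41, 0.42 and 0.79. Mycbpap, at 25.8 to 92.1 on the 12 arrays, changed by 0.88 to 1.03 in WT and -0.87 to -0.55 in TKO.

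For Spry4, Bcl3 and Pirt the TKO level fell from ESC to EB. Spry4, a feedback inhibitor of receptor tyrosine kinase signalling, was at 695, 559 and 293 in WT ESC and 1236, 1283 and 2110 in TKO ESC. In EB it was at 667, 261 and 268 in WT and 91.6, 159 and 588 in TKO, and it fell in TKO (-2.87 ± 0.96, SD, n = 3, adjusted p 0.0104, limma). Bcl3, an IκB-like cofactor, was at 833, 257 and 335 in WT ESC and 557, 942 and 878 in TKO ESC. It fell in TKO to 172, 240 and 327, of which Ta1-12 lay within WT EB (269 to 617) and the other lines below. Pirt was at 102 to 160 in TKO ESC and 23.6 to 63.3 in WT ESC, with EB values of 20.3 to 47.2 in all lines.

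With TKO above WT, Lbr, the lamin B receptor of the inner nuclear membrane, was the brightest of the 10. It went from 9044, 8808 and 8348 to 2965, 3958 and 3892 in WT, and from 9830 to 8074 (7-4-1), 8345 to 7648 (Dutch) and 6989 to 4165 (Ta1-12) in TKO. All TKO EB arrays were above all WT EB arrays, with Ta1-12 nearest to WT. The WT fall of 1.29 was called (adjusted p 0.00603, limma). The difference was 0.90 with a standard error of 0.22. Rab3b, a small GTPase of secretory vesicles, changed by -1.63, -1.41 and -1.44 in WT and -0.44, 0.25 and 0.68 in TKO. Its ESC levels were 185 to 233 in WT and 92.4 to 134 in TKO, so both stages stood apart. Klf15, a Krüppel-like factor, fell in both genotypes, by 3.53 in WT and by 1.5 in TKO. Its EB levels were 41.3 to 74.5 in WT and 95.5, 360 and 202 in TKO.

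Slc1a1, a glutamate transporter, changed by -1.08, -1.09 and -0.76 in WT and 0.37, 0.18 and 0.33 in TKO, opposite in sign in every line. Fam221a likewise changed by -0.83, -0.52 and -1.11 and by 0.46, 0.75 and 0.19. Gnaz, a G protein alpha subunit, changed by -1.10, -1.75 and -1.48 and by 0.11, -0.20 and -0.38. Nxt2, of the mRNA export machinery, changed by -1.65, -1.26 and -1.01 and by 0.71, 0.26 and -0.55. Ybx2, a germ cell RNA-binding protein, changed by -3.32, -2.60 and -2.88 and by -0.45, -0.52 and -2.14. Greb1l changed by -0.09, -1.22 and -0.02 and by 2.18, 2.76 and 0.71, but its second probe set had a difference of -0.52 against 2.33, so the probe sets of this gene disagree in sign. Fgf5, the remaining gene of the 10, is given above with its floor.

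**Figure D5:**
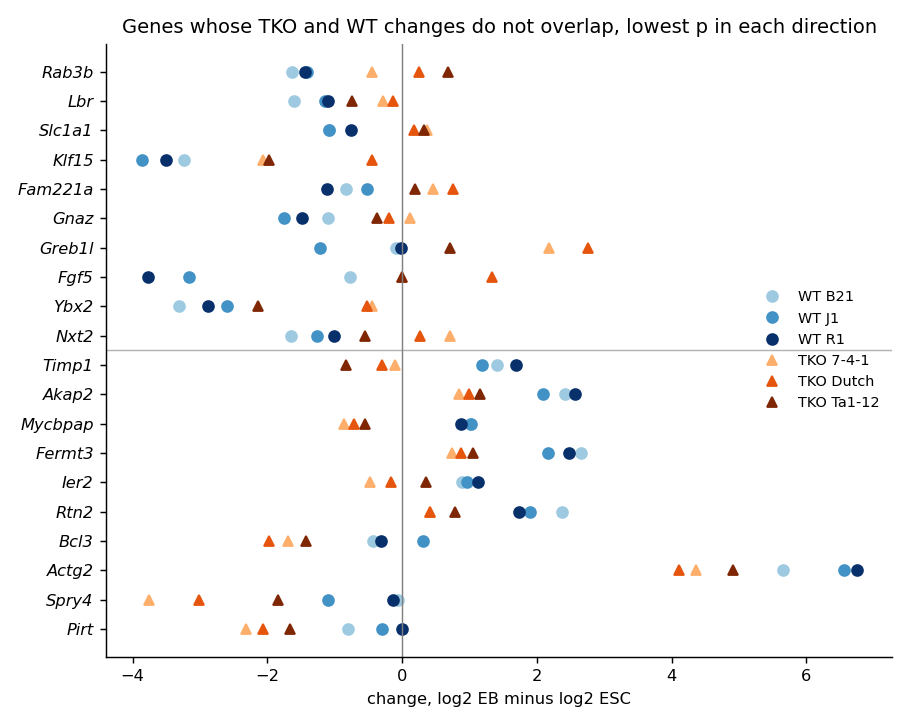
Change (log2 EB minus log2 ESC) in each line for the 10 genes of lowest p with TKO above WT (upper block) and the 10 with TKO below WT (lower block); circles are WT and triangles TKO lines. The groups do not overlap by selection, and Timp1 shows TKO changes of -0.84 to -0.10 against 1.19 to 1.69 in WT.

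Each TKO line also had genes far outside the WT range, given as a description. In 7-4-1 the 4 farthest above were Rfx4, a neural transcription factor, Igfbpl1, Tlcd3b and Hoxb6. Rfx4 reached 1922 in 7-4-1 EB, against 17 to 144 in the other EB arrays. The 4 farthest below were Krt15, Krt6a, Cyp2f2 and Krt4, all at 2133 or more in WT EB and at 36.9 to 211 in 7-4-1 EB. In Dutch those above were Pou5f1, Nanog, Mael and Dmrt1, and those below were Lyz1, Lyz2, Krt15 and Upk1b. Mael, a piRNA pathway gene, went from 955 to 1978 in Dutch, and to between 1.61 and 17.4 in the other EB arrays. In Ta1-12 those above were Cxcl10, an interferon-induced chemokine, Tff1, Gbp3 and Fam3b. Cxcl10 went from 31 to 2425 in Ta1-12, against 66.6 to 478 in the other EB arrays. Those below were Gbx2, Mymx, Soga3 and Mras. Mras, a Ras-related GTPase, changed by 2.31, 2.02 and 1.96 in WT and 1.21, -1.07 and -0.50 in TKO, and was also below WT in every TKO line.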

How the data were processed

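The 14 arrays carry biotin-labelled total RNA extracted with Trizol and run on an Affymetrix mouse array, per the labels. The authors deposited 1 linear intensity per probe set and array in the series' value table. The software, background correction and normalization behind it are unstated in the labels and headers, and probe-level depth is unknown, so the number of arrays limits the precision. Values ran from 0.596 to 25702.

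Of 45101 probe sets, 34958 carried 1 gene symbol, 932 several and 9211 none in the platform annotation, which can be old. Matching by Entrez ID (34754) changed 0 symbols. A gene was its brightest probe set over the 12 arrays (18194 genes, 9012 with several probe sets). A gene was tested (14265) when 3 or more arrays put it over their own 40th percentile.

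Intensities under 32 were raised to 32 before log2, which understates changes of dim genes. The log2 EB minus log2 ESC of each line, from the deposited values, was fitted in limma 3.58.1 (R 4.3.3), with an intensity trend in the variance and Benjamini-Hochberg adjustment at 0.05. The line is the block: the labels name the same cell line at both stages. Deviations of the ESC and EB array of a line correlated at -0.045 (B21), -0.078 (J1), -0.037 (R1), 0.092 (7-4-1), 0.172 (Dutch) and 0.1 (Ta1-12). The fit was tested on simulated data. SDs are over the 3 lines of a genotype. Standard errors and p-values, of differences and of the change within a genotype, are limma's, from the moderated variance over all 6.

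The members and the 24 gene lists were chosen with earlier results of these data known. Named genes were the 10 non-overlapping genes of lowest p per direction (clone names and sex-linked markers left out), up to 4 per list by p, the 4 farthest outside the WT range per TKO line and direction, and a preset set. Further genes named beside them were chosen after their values were seen. Alternatives changed the floor, scaling, filter, probe set rule, variance model, block and lines. Promoters are from RefSeq, GRCm38.p6, and 2858 tested genes had none there.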

Additional observations from a re-analysis of the deposited data

Results flagged for a closer look

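In 6 of the named genes every WT line moved one way and every TKO line the other. All of them but Cdc25b were named because their changes do not overlap, and the share over all genes was not computed. The count is thus a description of selected genes. The difference of TKO minus WT was 1.27 for Slc1a1, 1.29 for Fam221a, 2.33 for Greb1l, -1.84 for Timp1, -1.68 for Mycbpap and 0.83 for Cdc25b. Some of these changes were close to 0, such as -0.02 in WT for Greb1l and Cdc25b and -0.1 in TKO for Timp1. The probe sets of Greb1l disagree in sign. Mycbpap values of 25.8, 29.0 and 29.2 were raised to the floor, and Slc1a1 in 7-4-1 went only from 32.9 to 42.5. Their unadjusted limma p-values were 0.00543, 0.00674, 0.00779, 5e-04, 0.00133 and 0.0913 in that order, and none passed after adjustment.

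The TKO EB arrays 2-55-2 and 14-14-4 enter no comparison. Of the 10 genes of lowest p with TKO changes above WT, both arrays read above every WT EB array for 4, below every WT EB array for 2 (Slc1a1 and Gnaz) and neither for 4 (Rab3b, Klf15, Greb1l and Nxt2). In the order of arrays just given, Lbr read 7582.7 and 8352.0, Fam221a 258.4 and 279.6, Fgf5 185.2 and 112.7, and Ybx2 151.0 and 121.2. Slc1a1 read 22.0 and 33.0 and Gnaz 91.5 and 99.2. Of the 10 with TKO changes below WT, both arrays read below every WT EB array for 4 (Timp1, Mycbpap, Rtn2 and Bcl3), above for 0 and neither for 6.

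Among the other named genes whose TKO and WT changes did not overlap, both arrays read above the floor and above every WT EB array for Mcm6 (11861.0 and 9945.9), Mcm2 (6004.0 and 6438.7), Mcm4 (5905.2 and 6314.3), Lin9 (1563.6 and 970.9) and Sox2 (4195.9 and 8580.8). Mcm3 did so too (7252.7 and 6885.1). Nr5a2 (191.2 and 366.5) and Cdc25b (454.1 and 319.3) did not, with 1 array inside the WT EB values for each. Mael read 12.4, under the floor, and 100.4. The share of all genes for which both arrays read above WT EB was not computed. Mymx, whose TKO changes lay below WT, also read above WT EB (1106.8 and 1455.2). In some cardiac genes the 2 arrays stood on opposite sides of WT EB. Tnnt2 read 12139.9 in 2-55-2 and 270.7 in 14-14-4, Myh7 2193.5 and 26.0, and Ttn 2965.1 and 40.6. For these, 2-55-2 was above and 14-14-4 below every WT EB array. Hand2 read 1515.9, below WT EB, and 2228.5, inside it. The keratin Krt15 read 8325.1, inside the WT EB values, and 289.9, below them.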

How the results depend on the processing

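The count of genes with a called difference was 0 under each setting run, and no named difference was called (lowest adjusted p 0.0614 over 2205 values of 130 named genes). Leaving out 1 line at a time moved the WT calls over 499 to 5510 and the TKO calls over 69 to 3885. Genes with TKO above WT in all lines then numbered 869 to 1705 and those below 1047 to 2188, since fewer lines separate more easily. Without the expression filter 1241 TKO calls were made, with more genes tested. With no replicate block, so that the pairing by line was dropped, 6045 WT, 4096 TKO and 0 difference calls were made. Of the 2205 values 24 turned direction. The difference of Cdkn1a turned to -0.01 with the median of probe sets. That of Col3a1 turned to -0.05 (floor 16), -0.13 (floor 64), -0.12 (pseudocount 32) and -0.02 (median of probe sets). With lines left out the differences spanned -0.13 to 1.01 for Cdkn2d, -1.21 to 0.13 for Ccnd1, -0.01 to 0.86 for Mixl1, -0.08 to 2.44 for Map2, -0.42 to 1.46 for Flt1, -0.13 to 2.78 for Hoxb6, -0.15 to 1.41 for Hoxb5, -0.19 to 0.55 for Rbl1, -0.36 to 0.42 for Cdkn1a, -0.8 to 0.91 for Cdkn2c, -0.28 to 0.67 for Col3a1, -1.5 to 0.36 for Dcn, -0.97 to 0.13 for Afp and -1.25 to 0.09 for Ttr. The median difference of 13 of 24 lists turned under some setting. The cause was not tested. Values under the floor of 32 carry no order, and 3 lines a genotype limit the precision.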
